A study of Mus musculus with 27 samples.

Results

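The comparison described here is Dnmt1 knockdown (KD) in *Setdb1* conditional knockout immortalized mouse embryonic fibroblasts (*Setdb1* cKO iMEFs) that had been given 4-hydroxytamoxifen (4OHT), the drug that activates the Cre recombinase and so triggers deletion of *Setdb1*, the gene of an H3K9 methyltransferase. Its members were chosen by their labels alone: 2 libraries labelled 4OHT + siDnmt1 and 2 labelled 4OHT + siCtrl, 4 of the 27 samples of the series. Cells of both groups carried the same conditional *Setdb1* alleles and received 4OHT. They differed in the siRNA, a pool against *Dnmt1* or a control pool, transfected a first time and again after passage, and were harvested on day 6. The line goes back to a single recloned line of immortalized cells, so that the replicates are libraries of 1 clone. Another 4 libraries, siDnmt1 and siCtrl without 4OHT (2 each), were used where stated. No label says that the replicates are separate cultures, and p-values measure the spread between replicate libraries of all 4 groups, which may be technical.

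*Dnmt1* encodes the maintenance methyltransferase, which copies CpG methylation onto the new DNA strand after replication with the help of *Uhrf1*, so that cells lacking it lose methylation passively as they divide. In fibroblasts, promoter methylation is best known for silencing a set of germline genes, and methylation also keeps endogenous retroviruses (ERVs) silent, most of all the intracisternal A particles (IAPs). Retroviral RNA that forms double strands can be sensed in the cytoplasm and induces interferon (IFN) and the genes that respond to it.

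RNA was measured as FPKM, fragments per kilobase of transcript scaled to the mapped reads of the library, a level that can be compared between genes per length. The depth implied by the confidence limits of the values was 13580000 to 15240000 reads in these 4 libraries. The 10762 genes tested were those that reached 1 FPKM in 2 or more of the 8 libraries. It was called with a Benjamini-Hochberg adjusted p under 0.05 in limma on log2(FPKM + 0.1) and a fold of at least 2. Log2 fold changes below are on that scale, which understates the change of low genes. With 2 libraries against 2, an exact permutation test of 1 gene cannot go below p = 0.333, so that every call rests on the spread limma shares across genes. The spread of each gene was also pooled over the 4 groups of the 8 libraries. Replicates without 4OHT lay closer together (counts below), so that p-values do not measure the spread of the 4 compared libraries alone.

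The 4OHT + siCtrl libraries differed from each other more than any other pair. Of the tested genes, 1237 were more than 2-fold apart between them, against 560 between the 4OHT + siDnmt1 libraries, 273 between the siCtrl libraries and 261 between the siDnmt1 libraries. All 63 tested IFN-induced genes were higher in 4OHT + siCtrl replicate 1 than in replicate 2, by a median of 6.65-fold. The epithelial keratin *Krt8* went the other way, at 0.215 FPKM in replicate 1 and 6.97 FPKM in replicate 2. Total calls and the IFN-induced, germline and epithelial lists are given below with and without single libraries. Most other results are given with all libraries only.

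*Dnmt1* RNA (mm9, chr9:20711650-20764332) was 78.7 and 78.4 FPKM in the 4OHT + siCtrl libraries and 12.2 and 11.4 FPKM in the 4OHT + siDnmt1 libraries. It fell 6.59-fold (log2 fold change -2.72, SE 0.107, adjusted p = 0.000162), and both knockdown libraries lay far below both controls. Without 4OHT it was 80.5 and 73.4 FPKM in siCtrl and 12.2 and 10.6 FPKM in siDnmt1, and the difference between the 2 changes was 0.03 on the log2 scale (adjusted p = 0.965). *Setdb1* was 7.58 and 5.00 FPKM in 4OHT + siCtrl, 5.40 and 6.94 FPKM in 4OHT + siDnmt1, and 7.40 and 6.48 FPKM in siCtrl. The gene-level *Setdb1* value therefore does not show the deletion, and the groups are named here by their labels.

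Among the other factors of DNA methylation, none of the 16 tested passed both limits. The de novo enzyme gene *Dnmt3a* was 4.36 and 4.20 FPKM in the controls and 2.64 and 3.12 FPKM after Dnmt1 KD, without overlap (log2 fold change -0.56, adjusted p = 0.147). *Tet3*, which encodes a 5-methylcytosine dioxygenase, was 4.98 and 7.16 FPKM against 2.34 and 2.96 FPKM (log2 fold change -1.15, adjusted p = 0.0687). *Uhrf1* lay between 68.1 and 85.5 FPKM in all 4 libraries and overlapped between groups. None of the 24 tested members of the H3K9 methylation and HP1 list was called. In 10 of them both knockdown libraries were below both controls (23.4% of all genes were), and in 2 above both (20.4% were). Of 22 Polycomb genes 1 was called lower (0.409% of all genes tested were), *Cbx7*, which is treated below with genes listed at 0.

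Across all genes, 117 were called higher after Dnmt1 KD (1.09% of those tested) and 44 lower (0.409%). Without regard to size, 126 were higher and 101 lower at an adjusted p under 0.05, and 2104 genes had an unadjusted p under 0.05. Of the 117 genes that rose, 78 had a control mean under 1 FPKM, which the filter allows because a gene can be tested through the knockdown libraries, whereas a gene near 0 in the controls cannot be called lower. Genes that rose had a median log2 fold change of 3.37 and genes that fell one of -1.39, beside -0.02 over every gene tested. Of the genes called higher, 12 lie on the X chromosome (10.3%), which holds 3.25% of the genes tested. Of those called lower, 2 do.

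**Figure D1:**
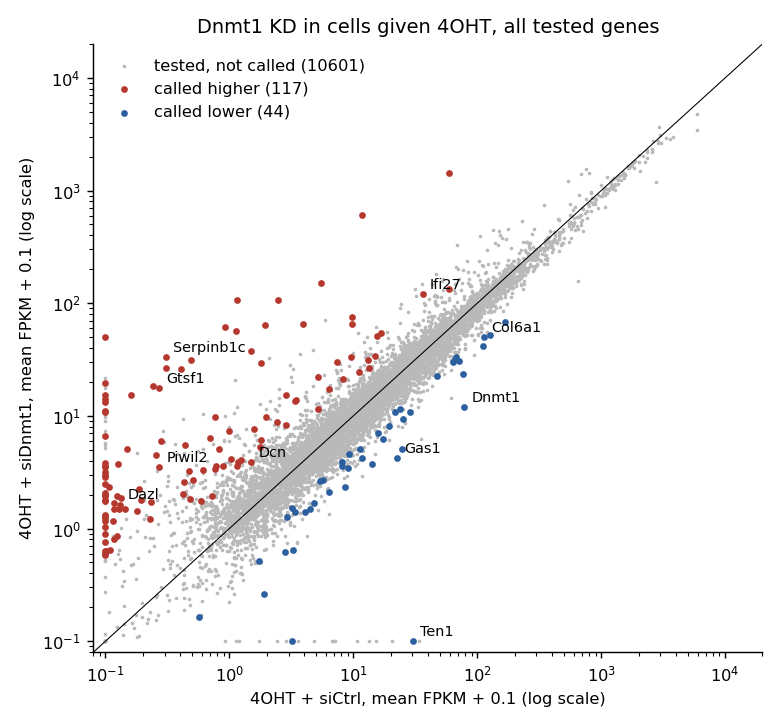
Mean FPKM + 0.1 of each tested gene in the 2 libraries of 4OHT + siCtrl (x axis, log scale) and of 4OHT + siDnmt1 (y axis, log scale), with 1 point per gene and the line of equal levels. Of the 117 genes called higher (red), 78 lie under 1 FPKM in the controls, and *Dnmt1* is among the 44 called lower (blue).

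The calls depended on single libraries. Leaving out 4OHT + siCtrl replicate 1 gave 596 higher and 282 lower, and leaving out replicate 2 gave 226 and 104. Leaving out 4OHT + siDnmt1 replicate 1 gave 44 and 28, and leaving out its replicate 2 gave 86 and 63. A fit to the 4 libraries with 4OHT alone gave 25 and 6, and of the 52 called genes that the naming rule picked, 17 kept their call in it and 32 lost it. Of the called genes, 38 higher and 9 lower were called in each of the 4 fits that leave out 1 library. The 9 lower were *Cbr2*, *Cbx7*, *Col6a1*, *Dnmt1*, *Fbn2*, *Ndufa8*, *Rnf150*, *Stx8* and *Ten1*. The 38 higher included *Gtsf1*, *Piwil2*, *Tuba3a*, *Tuba3b*, *Serpinb1c*, *Dpep1*, *Trpc6*, *Dcn*, *Ifitm1* and *Xlr*. These names were listed after their values were seen. Of them, *Cbx7* and *Ten1* were listed at 0 in both knockdown libraries, and *Tuba3a*, *Tuba3b* and *Xlr* in both controls. Leaving out 1 library cannot show whether such a 0 is a failed estimate.

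Of the gene lists, the germline list had the most called members. Of 82 listed genes, 78 had a value, and 21 reached the level needed for testing. Of these, 10 rose (1.09% of all genes tested did) and none fell: *Tuba3b*, *Gtsf1*, *Tuba3a*, *Piwil2*, *Dazl*, *Hormad1*, *Taf7l*, *Tex15*, *Naa11* and *Slc25a31*. The median log2 fold change of the 21 was 2.59, and 20 of them were higher in both knockdown libraries than in both controls, as were 20.4% of all genes tested. Members enter the test mainly through the groups in which they are expressed, so that these 21 do not stand for the whole list: 57 members stayed below the limit and 14 were listed at 0 in all 4 libraries.

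The 250 bases before the start of 4 of these genes, and of *Serpinb1c* for contrast, are shown because CpGs are the sites that Dnmt1 methylates. They are printed 5′ to 3′ on the gene's strand with each CpG in capitals, from the first RefSeq promoter listed for the gene on GRCm38.p6. The *Dazl* window (chr17:50293621-50293870, minus strand) holds 20 CpGs, the *Hormad1* window (chr3:95559427-95559676, plus strand) 19, the *Taf7l* window (chrX:134476491-134476740, minus strand) 14, the *Tuba3b* window (chr6:145615713-145615962, plus strand) 14 and the *Serpinb1c* window (chr13:32940601-32940850, minus strand) 0.
Dazl: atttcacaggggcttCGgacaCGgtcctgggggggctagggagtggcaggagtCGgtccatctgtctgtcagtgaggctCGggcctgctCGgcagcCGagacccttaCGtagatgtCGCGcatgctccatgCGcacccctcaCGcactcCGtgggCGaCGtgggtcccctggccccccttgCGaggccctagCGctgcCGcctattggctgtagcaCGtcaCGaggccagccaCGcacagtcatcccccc
Hormad1: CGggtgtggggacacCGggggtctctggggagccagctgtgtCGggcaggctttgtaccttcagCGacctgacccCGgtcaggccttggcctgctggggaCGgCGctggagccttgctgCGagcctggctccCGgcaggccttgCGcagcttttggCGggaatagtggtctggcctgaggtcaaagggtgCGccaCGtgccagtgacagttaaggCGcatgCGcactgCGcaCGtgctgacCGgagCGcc
Taf7l: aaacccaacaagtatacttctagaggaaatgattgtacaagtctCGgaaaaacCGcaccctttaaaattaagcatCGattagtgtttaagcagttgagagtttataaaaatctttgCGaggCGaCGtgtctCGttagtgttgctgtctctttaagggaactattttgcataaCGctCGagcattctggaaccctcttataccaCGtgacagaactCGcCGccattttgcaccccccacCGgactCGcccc
Tuba3b: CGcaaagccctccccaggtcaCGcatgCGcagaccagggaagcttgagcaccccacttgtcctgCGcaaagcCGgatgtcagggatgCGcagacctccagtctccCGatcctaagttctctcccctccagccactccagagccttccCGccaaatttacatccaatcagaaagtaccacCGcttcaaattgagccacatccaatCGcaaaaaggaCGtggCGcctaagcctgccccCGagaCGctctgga
Serpinb1c: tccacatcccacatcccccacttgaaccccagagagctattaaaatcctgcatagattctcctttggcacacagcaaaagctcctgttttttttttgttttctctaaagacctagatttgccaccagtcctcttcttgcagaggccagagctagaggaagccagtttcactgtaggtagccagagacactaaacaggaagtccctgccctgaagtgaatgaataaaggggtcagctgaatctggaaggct

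*Dazl* encodes a germ cell RNA-binding protein. Its RNA was 0.0423 and 0.0215 FPKM in the controls and 1.58 and 1.48 FPKM after Dnmt1 KD (log2 fold change 3.63, SE 0.371, adjusted p = 0.00933). *Piwil2*, a PIWI protein of the piRNA pathway, rose from 0.134 and 0.210 FPKM to 3.29 and 3.53 FPKM (log2 fold change 3.70, SE 0.300, adjusted p = 0.0036). *Gtsf1*, a partner of PIWI proteins, rose from 0.111 and 0.227 FPKM to 17.6 and 17.6 FPKM (log2 fold change 6.07, SE 0.277, adjusted p = 0.000268). All 3 were separated by more than the whole range within either group. The testis tubulin gene *Tuba3b* was listed at 0 in both controls and at 16.2 and 12.1 FPKM after Dnmt1 KD (adjusted p = 0.000141), and its relative *Tuba3a* at 0 and then at 3.69 and 3.69 FPKM (adjusted p = 0.00115). These 2 tubulin genes are near-identical copies, and reads may be shared between them.

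Other germline members rose to lower levels. *Hormad1*, a protein of meiotic chromosome axes, went from 0 and 0.0474 FPKM to 0.721 and 0.812 FPKM (log2 fold change 2.83, adjusted p = 0.0334). *Taf7l*, a germ cell form of a TFIID subunit, went from 0.0331 and 0 FPKM to 0.799 and 0.600 FPKM (log2 fold change 2.78, adjusted p = 0.0253). *Tex15*, needed for meiosis and for silencing in male germ cells, went from 0.341 and 0.320 FPKM to 2.34 and 2.64 FPKM (log2 fold change 2.59, adjusted p = 0.0135). Each had no overlap between groups. The meiotic cohesin gene *Rec8* was 0 and 0.0946 FPKM against 1.62 and 0.596 FPKM and was not called (adjusted p = 0.0723). Without 4OHT + siDnmt1 replicate 1 only 4 of 20 tested members were called, and without its replicate 2 only 5, while without 4OHT + siCtrl replicate 1 16 were called and without its replicate 2 11.

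**Figure D2:**
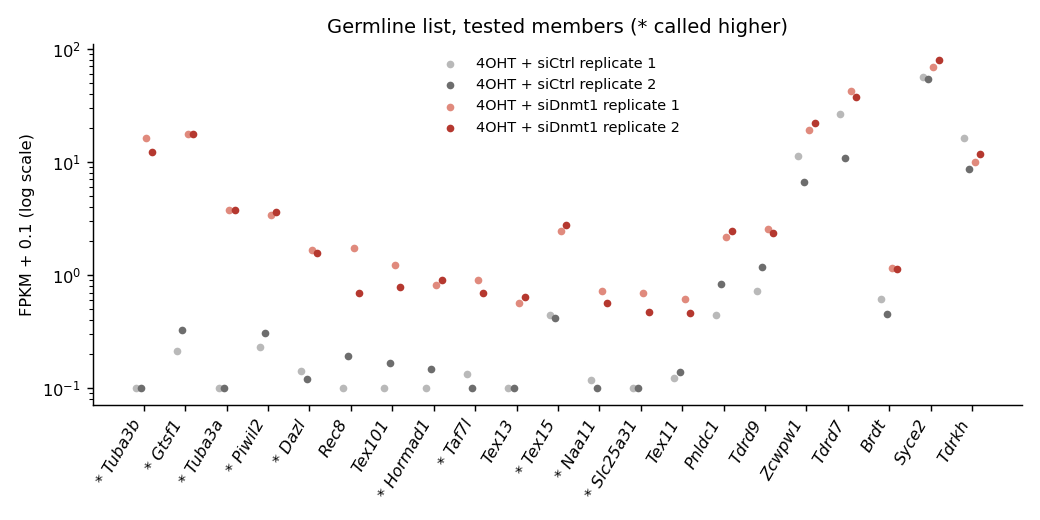
FPKM + 0.1 (y axis, log scale) of the 21 tested germline genes (x axis, ordered by log2 fold change) in each of the 4 libraries with 4OHT, controls in grey and knockdown libraries in red, with an asterisk for the 10 called higher. In 20 of the 21 genes both red points lie above both grey points.

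*Xlr*, of a multicopy X-linked gene cluster, was listed at 0 in both controls and at 2.96 and 2.83 FPKM after Dnmt1 KD (adjusted p = 0.00132). *Xist*, the RNA that coats the inactive X chromosome and is silenced by methylation on an active one, rose from 0.00323 and 0 FPKM to 0.482 and 0.589 FPKM (log2 fold change 2.64, adjusted p = 0.0431). *Xist* was the only 1 of 32 tested imprinted genes called (1.09% of all genes tested were called higher). It was below 1 FPKM in all 4 libraries and was tested only through siDnmt1 without 4OHT, at 1.27 and 1.28 FPKM. Its call was not kept in every fit that leaves out 1 library.

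The genes with the highest log2 fold changes were mostly from outside the fixed lists. *Serpinb1c*, a member of the clade B serine protease inhibitors, was 0.206 and 0.210 FPKM in the controls and 34.6 and 31.9 FPKM after Dnmt1 KD (log2 fold change 6.76, SE 0.189, adjusted p = 6.75e-05). The olfactory receptor gene *Olfr1055* was 0.343 and 0.0700 FPKM and then 34.0 and 19.23 FPKM (log2 fold change 6.55). *Dpep1*, a membrane dipeptidase gene, was 0.0842 and 0.200 FPKM and then 17.0 and 19.6 FPKM (log2 fold change 6.29). In all 3 the lower knockdown library lay far above the higher control. The cation channel gene *Trpc6* rose from 0.228 and 0.560 FPKM to 41.9 and 20.9 FPKM (log2 fold change 6.00). *Cfap70*, of cilia and flagella, rose from 0.0342 and 0.0852 FPKM to 20.0 and 10.3 FPKM (log2 fold change 6.52), and *Hsh2d*, an SH2 adaptor gene of lymphocytes, from 0.562 and 0.0573 FPKM to 33.5 and 18.3 FPKM (log2 fold change 6.27). For these 3, replicate 1 of the knockdown was higher than replicate 2 by close to 2-fold, less than the difference between groups. *Asb5*, *Gm4262*, *Gm19757*, *4933409K07Rik* and *A430078G23Rik* completed, with *Gtsf1*, the 12 genes with the highest changes among those above 0 in all 4 libraries, with log2 fold changes of 5.13 to 6.53. *4933409K07Rik* was placed at several sites of chromosome 4, so that its level of 10.4 and 12.8 FPKM in the controls and 760 and 450 FPKM after knockdown is uncertain.

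The highest level among genes called higher belonged to the joined prion locus *Prn,Prnd,Prnp*, at 57.7 and 60.2 FPKM in the controls and 1709 and 1131 FPKM after Dnmt1 KD (log2 fold change 4.56, adjusted p = 0.0002). The file gives 1 value for the 3 overlapping genes, which cannot be told apart. *H1f0*, a linker histone gene of slowly dividing cells, rose from 50.02 and 67.9 FPKM to 152 and 117 FPKM (log2 fold change 1.19, adjusted p = 0.0357). *Gdf15*, a stress-responsive cytokine gene and p53 target, rose from 0.457 and 0.865 FPKM to 9.38 and 10.1 FPKM (log2 fold change 3.75, adjusted p = 0.0051). Of 26 tested p53 targets, *Gdf15* rose (1.09% of all genes tested did) and *Sesn1* fell (0.409% did). *Sesn1* went from 8.17 and 10.2 FPKM to 4.14 and 4.87 FPKM (log2 fold change -1.01, adjusted p = 0.0398).

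Promoter windows of 250 bases were found for 86 of the 117 genes called higher, 34 of the 44 called lower and 8460 of the 10762 tested. Genes called higher had a median of 6 CpGs and a CpG observed/expected ratio of 0.388, against 16 and 0.750 for all tested genes and 16.5 and 0.745 for genes called lower. The 63 tested IFN-induced genes, of which 2 were called, had a median of 5 and a ratio of 0.343 in 46 windows. The groups were not matched for control level, and 78 of the 117 genes called higher had a control mean under 1 FPKM. Whether CpG content goes with the rise itself was not tested. The 8 germline genes called higher that had a window held a median of 14 CpGs with a ratio of 0.690, and all 8 held at least 5 CpGs, as did 60.5% of all called higher and 91.5% of all tested. The E-box CACGTG, searched as its own reverse complement, was in 3 of the 8 germline windows, 10.5% of the windows of genes called higher and 8.57% of all. The E2F-type motif TCCCGC, searched on both strands, was in 4 of the 8, in 18.6% and in 31.8%. A match of letters does not show binding.

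Among genes above 0 in all 4 libraries, *Rnf150*, which encodes a RING finger protein, had the lowest log2 fold change. It was 1.82 and 1.81 FPKM in the controls and 0.0949 and 0.232 FPKM after Dnmt1 KD (log2 fold change -2.91, SE 0.332, adjusted p = 0.0135). *Gas1*, a membrane protein gene of growth arrest and hedgehog signaling, fell from 17.97 and 26.6 FPKM to 5.82 and 2.37 FPKM (log2 fold change -2.52, adjusted p = 0.0413). *Stx8*, an endosomal SNARE gene, fell from 28.6 and 20.5 FPKM to 5.03 and 4.85 FPKM (log2 fold change -2.27, adjusted p = 0.00334). Without 4OHT, *Stx8* was 3.69 to 4.14 FPKM in siCtrl and siDnmt1 alike (log2 fold change -0.11), near its level in 4OHT + siDnmt1. None of the 3 overlapped between groups. The homeobox gene *Shox2* fell from 16.7 and 11.4 FPKM to 3.65 and 3.69 FPKM (log2 fold change -1.88, adjusted p = 0.00933). *Id3*, an inhibitor of basic helix-loop-helix factors, fell from 112 and 142 FPKM to 43.2 and 60.8 FPKM (log2 fold change -1.30, adjusted p = 0.0354). *Ndufa8*, a subunit gene of respiratory complex I, fell from 111 and 110 FPKM to 38.8 and 45.0 FPKM (log2 fold change -1.40, adjusted p = 0.00334). *Kif26b*, *Tial1*, *Cbr2*, *Sfr1* and *C530008M17Rik* also fell, by log2 fold changes between -2.26 and -1.32. *Tial1* was 73.7 and 79.7 FPKM in 4OHT + siCtrl and 18.9 and 27.9 FPKM in 4OHT + siDnmt1. Without 4OHT it was 14.8 to 28.1 FPKM.

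Matrix genes were among those called in both directions. Of 30 tested collagen and matrix genes 2 fell (0.409% of all genes tested did) and 2 rose (1.09% did). In 13 both knockdown libraries were lower than both controls (23.4% of all genes were), and the median log2 fold change was -0.38. *Col6a1*, an alpha chain of type VI collagen, fell from 114 and 112 FPKM to 55.5 and 44.3 FPKM (log2 fold change -1.19, SE 0.115, adjusted p = 0.00726). *Col5a1*, of type V collagen, fell from 59.3 and 83.4 FPKM to 29.8 and 31.6 FPKM (log2 fold change -1.19, adjusted p = 0.0299). Outside the list, *P4ha3*, a subunit gene of the enzyme that hydroxylates collagen prolines, fell from 3.11 and 3.24 FPKM to 0.446 and 0.632 FPKM (log2 fold change -2.37, adjusted p = 0.0102). The fibrillin gene *Fbn2*, also outside it, fell from 8.39 and 8.58 FPKM to 2.19 and 2.27 FPKM (log2 fold change -1.88, SE 0.110, adjusted p = 0.000982). Of the listed genes that rose, the gelatinase gene *Mmp2* went from 1.31 and 2.12 FPKM to 7.22 and 4.75 FPKM (log2 fold change 1.75, adjusted p = 0.045), and the small proteoglycan gene *Dcn* from 1.40 and 1.39 FPKM to 3.92 and 3.63 FPKM (log2 fold change 1.38, SE 0.112, adjusted p = 0.0036).

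For the IFN-induced genes the outcome depended on which control library was used. Of 99 listed, 65 had a value and 63 were tested. Of these 2 rose (1.09% of all genes tested did) and none fell. *Ifi27* was 44.6 and 27.6 FPKM in the controls and 110 and 129 FPKM after Dnmt1 KD (log2 fold change 1.76, SE 0.219, adjusted p = 0.0185). *Ifitm1*, an IFN-induced membrane protein gene, was 1.16 and 1.12 FPKM and then 3.14 and 4.73 FPKM (log2 fold change 1.67, SE 0.221, adjusted p = 0.0234). Unlike the list median, both genes were lower in 4OHT + siCtrl than in siCtrl. There *Ifi27* was 77.9 and 84.0 FPKM and *Ifitm1* 7.43 and 8.51 FPKM. Their controls were also closer together than the list median of 6.65-fold. The median log2 fold change of the list was 2.04, and 62 of 63 members had a positive value, and 47 were higher in both knockdown libraries than in both controls (20.4% of all genes were). The median level of the list was 73.0 and 12.9 FPKM in the 4OHT + siCtrl libraries and 138 and 85.6 FPKM in the 4OHT + siDnmt1 libraries. Both knockdown libraries were thus above both controls, but the controls were further apart from each other than the knockdown libraries were.

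Single members, picked after their values were seen, show the same spread. *Irf7*, the transcription factor that amplifies the IFN response, was 279 and 14.6 FPKM in the controls and 369 and 290 FPKM after Dnmt1 KD (log2 fold change 2.36, SE 1.21, adjusted p = 0.334). *Zbp1*, a sensor of Z-form nucleic acids, was 132 and 3.92 FPKM and then 414 and 241 FPKM (adjusted p = 0.227). The IFN-beta gene itself, *Ifnb1*, was 4.08 and 0.727 FPKM and then 26.2 and 8.54 FPKM (log2 fold change 3.02, SE 0.925, adjusted p = 0.157). In these 3 the lower knockdown library was above the higher control, but on the log scale the step between those 2 libraries was smaller than the step between the controls. Without 4OHT + siCtrl replicate 1, 56 of the 63 IFN-induced genes were called higher with a median log2 fold change of 3.48. Without replicate 2, 4 were called and the median was 0.57. Of 24 tested genes of nucleic acid sensing none was called, and 8 were called without 4OHT + siCtrl replicate 1. Without 4OHT, Dnmt1 KD gave a median log2 fold change of 1.07 for the IFN-induced list with no call, and the difference between the changes with and without 4OHT passed the threshold in none of the 63 genes (limma, smallest adjusted p = 0.324, with 3 at an unadjusted p under 0.05).

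**Figure D3:**
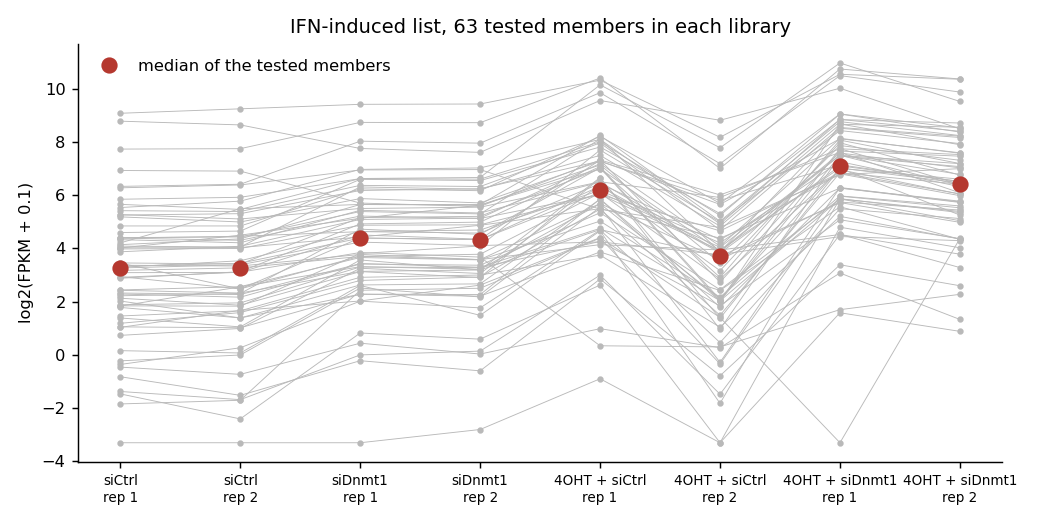
Log2(FPKM + 0.1) (y axis) of the 63 tested IFN-induced genes in each of the 8 siRNA libraries (x axis), with a grey line per gene and the median in red. The median is lowest in the siCtrl libraries (9.52 and 9.54 FPKM), stands at 73.0 FPKM in 4OHT + siCtrl replicate 1 and at 12.9 FPKM in replicate 2, and is 138 and 85.6 FPKM in the 4OHT + siDnmt1 libraries.

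Most fibroblast markers were present in all 4 libraries. *Vim* was 1042 to 1377 FPKM in the 4 libraries, none of 15 tested fibroblast markers was called, and their median log2 fold change was -0.27. Of the 15, 4 had a positive log2 fold change. Both knockdown libraries were below both controls in 6 (23.4% of all genes were) and above both in 1 (20.4% of all genes were). *Col1a1* was 317 and 416 FPKM in the controls and 243 and 202 FPKM after Dnmt1 KD. *Tcf21* was listed at 0 in all 4, and the summed level of the list was 3525 and 5059 FPKM in the controls and 3504 and 3464 FPKM after Dnmt1 KD. The summed level of epithelial markers was 21.5 and 93.4 FPKM in the controls and 178 and 142 FPKM after Dnmt1 KD. Of 13 listed epithelial markers 7 were tested, all with positive log2 fold changes (median 2.06). Of the 7, 5 were above both controls in both knockdown libraries (20.4% of all genes were), and none was called. Members at 1 FPKM or more numbered 2 and 6 in the controls and 7 and 7 after Dnmt1 KD. Members can be tested through the knockdown libraries alone, so that the direction of these 7 follows in part from the filter. *Krt8* was 0.215 and 6.97 FPKM and then 43.3 and 27.1 FPKM, while *Krt5* was listed at 0 throughout and *Cdh1* did not exceed 0.937 FPKM. Of 49 keratins 7 were tested and *Krt16* was called higher (1.09% of all genes tested were), at 0.421 and 0.258 FPKM and then 3.93 and 6.92 FPKM. Without 4OHT + siCtrl replicate 2, 5 of the epithelial markers were called, and without replicate 1, 3. Haematopoietic markers summed to 6.21 and 13.8 FPKM in the controls and 12.5 and 12.3 FPKM after Dnmt1 KD, with *Tyrobp* at 0, and endothelial markers to between 0.726 and 1.19 FPKM in all 4. Of 12 listed muscle markers 4 were tested and none was called. Of the 4, 3 were above both controls in both knockdown libraries (20.4% of all genes were). Members at 1 FPKM or more numbered 0 and 1 in the controls and 2 and 3 after Dnmt1 KD, so that the same limit of the filter applies. *Myod1* was 0.0347 and 0.283 FPKM and then 2.30 and 3.98 FPKM (adjusted p = 0.0557), *Myh8* was listed at 0, and the list summed to 1.93 and 3.95 FPKM and then 7.41 and 8.45 FPKM. Pluripotency markers summed to 37.4 and 21.2 FPKM and then 67.0 and 86.7 FPKM, most of it from *Klf2* (23.1 and 14.4 FPKM, then 38.5 and 58.6 FPKM, adjusted p = 0.0705) and *Klf4*, and none of the 3 tested was called. In bulk RNA, fewer cells of a type and less RNA per cell cannot be told apart, and the part of these markers in the results above was not tested.

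Several other lists gave no call: 44 genes of DNA replication and cell cycle, 20 of cholesterol synthesis, 22 Atf4 targets, 26 chemokines and cytokines, 26 contractile and TGF-beta genes, 12 Hox genes and 49 cluster histones. In the replication and cell cycle list both knockdown libraries were below both controls in 18 members (23.4% of all genes were). They were above both in 2 (20.4% were). Replicate 1 of 4OHT + siCtrl was above replicate 2 in 21 of 22 Atf4 targets and 24 of 26 contractile genes. The same held for 20 of 26 chemokines and cytokines. Where the controls stood apart, the lack of a call does not show that a list was unchanged. Of 32 tested ERK and AP-1 genes 1 fell (0.409% of all genes tested did). It was the immediate-early gene *Egr3*, from 6.29 and 4.98 FPKM to 2.96 and 2.28 FPKM (log2 fold change -1.08, adjusted p = 0.0468). In 30 of the 32, replicate 1 of 4OHT + siCtrl was above replicate 2. Of 266 tested Zfp genes 1 rose (0.376%, against 1.09% of all genes tested).

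Some called genes were listed at 0 in both libraries of 1 group. This held for 30 of the 117 called higher, 24 of which were also at 0 in both siCtrl libraries, and for 2 of the 44 called lower. Genes that every cell uses are among them, such as *Tfb1m*, a mitochondrial rRNA methyltransferase gene (0 in both controls, then 14.2 and 16.3 FPKM). *Surf2* was at 0 in both controls and in all 4 libraries without 4OHT, and at 47.2 and 52.5 FPKM after Dnmt1 KD with 4OHT. Such a 0 can be a failed estimate of the level, so no fold is given. *Nipa2*, a magnesium transporter gene, was at 0 and then at 11.9 and 9.88 FPKM, and *Angptl6* at 0 and then at 11.9 and 14.3 FPKM. In the other direction *Ten1*, of the telomere-binding CST complex, was 26.6 and 33.5 FPKM in the controls and listed at 0 in both knockdown libraries, and the Polycomb gene *Cbx7* was 1.98 and 4.20 FPKM and then listed at 0.

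The same knockdown in cells without 4OHT gave 258 genes higher (2.4%) and 263 lower (2.44%). These 4 libraries are separate from the 4 with 4OHT. Both changes were taken from 1 fit, with the same filter and the same SE for a gene, so that shared calls are not independent. Of the genes called higher with 4OHT, 84 were also called without it (71.8% of 117 and 32.6% of 258), and 108 of the 117 had a positive log2 fold change there. Of the genes called lower, 24 were also called without 4OHT (54.5% of 44 and 9.13% of 263), and 43 of the 44 had a negative one. Across the 10762 genes, which are not independent replicates, the log2 fold changes with and without 4OHT had a Pearson's r of 0.535. *Piwil2* was 0.0388 and 0.0130 FPKM in siCtrl and 6.06 and 5.20 FPKM in siDnmt1, and *Shox2* was 45.6 and 40.6 FPKM and then 4.06 and 4.27 FPKM. In the germline list 14 members were called without 4OHT, with a median log2 fold change of 3.80. None of the 21 germline genes had a difference between the 2 changes that passed the threshold (smallest adjusted p = 0.169, with 6 at an unadjusted p under 0.05).

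The difference between the 2 changes, an interaction term in the same limma fit, passed an adjusted p of 0.05 in 21 genes (0.195% of those tested), with 1073 at an unadjusted p under 0.05. In 15 of the 21 a group was listed at 0 in both libraries. The other 6 were *Dcn*, *Mrpl35*, *Ubxn7*, *Sulf2*, *Osr2* and *Fbn2*, named after their values were seen. *Dcn* was the 1 gene called higher with 4OHT and lower without it: siCtrl was at 49.4 and 49.2 FPKM and siDnmt1 at 16.3 and 16.3 FPKM, whereas with 4OHT it rose from 1.40 and 1.39 FPKM (interaction 2.96 on the log2 scale, SE 0.158, adjusted p = 0.00204). *Mrpl35*, a mitochondrial ribosomal protein gene, was 9.77 and 9.52 FPKM in 4OHT + siCtrl and 66.6 and 62.8 FPKM in 4OHT + siDnmt1, against 7.73 to 9.22 FPKM in the 4 libraries without 4OHT (interaction 2.86, adjusted p = 0.00204). *Ubxn7* was 8.71 and 7.52 FPKM and then 22.1 and 20.3 FPKM with 4OHT, and stayed within 5.68 to 7.48 FPKM without it (interaction 1.69, adjusted p = 0.0354). *Sulf2*, a heparan sulfate sulfatase gene, was 10.8 and 11.3 FPKM and then 6.00 and 6.46 FPKM with 4OHT, and 20.7 and 21.2 FPKM and then 3.93 and 3.92 FPKM without it (interaction 1.58, adjusted p = 0.0296). *Fbn2* fell with 4OHT and was 39.6 and 35.7 FPKM in siCtrl and 27.4 and 29.6 FPKM in siDnmt1 (interaction -1.48, adjusted p = 0.0347).

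**Figure D4:**
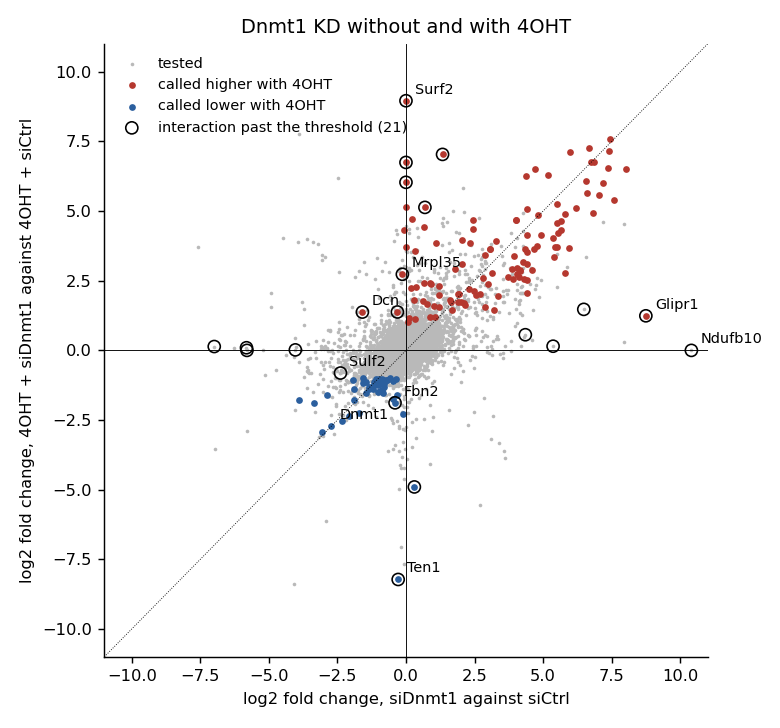
Log2 fold change of each tested gene on Dnmt1 KD without 4OHT (x axis) and with 4OHT (y axis), with the genes called higher (red) and lower (blue) with 4OHT, the line of equal change (dotted) and rings around the 21 genes whose changes differed. Most red points lie at positive values on both axes, and *Dcn* lies at -1.59 without and 1.38 with 4OHT.

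RNA of ERV families was summed over loci without a gene name that lay at least 50% inside an element of the study's list, as FPKM times locus length in kilobases (FPM). IAPEz elements were at 2.29 and 3.75 FPM in the controls and at 14841 and 14259 FPM after Dnmt1 KD (log2 fold change 12.23, SE 2.00, adjusted p = 0.045). Of 593 IAPEz elements, 1 and 2 held a locus in the control libraries and 583 and 580 in the knockdown libraries. Short loci inflate FPKM, and an estimate of the fragments from the confidence limits, chosen after seeing the data, gave 0.722 and 1.72 in the controls and 6874 and 5149 after Dnmt1 KD. Without 4OHT, siDnmt1 gave 28741 and 25025 by the first measure and 15449 and 15558 by the second, and the difference between the 2 changes did not pass (interaction -2.29, SE 2.83, adjusted p = 0.814).

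MMERVK10C, a family of ERVK elements, was at 293 and 155 FPM in the controls and 940 and 948 after Dnmt1 KD (log2 fold change 2.15, SE 0.565, adjusted p = 0.121), without overlap but not called. By fragments it was 74.4 and 43.9 and then 499 and 534, and was called (log2 fold change 3.17, SE 0.276, adjusted p = 0.00451). With a locus in 26 and 12 of its 167 elements in the controls and in 75 and 70 after Dnmt1 KD, it was at 0 in both siCtrl libraries. No U3 class of the VL30 elements was called. Class I was at 6790 and 12361 in the controls and 8443 and 7917 after Dnmt1 KD (log2 fold change -0.16, adjusted p = 0.79), against 171 and 117 in siCtrl. By fragments its direction turned, with 2971 and 5166 in the controls and 5537 and 5224 after Dnmt1 KD (log2 fold change 0.46, adjusted p = 0.357). Class II was at 347 and 17984 and then at 21626 and 9559 (log2 fold change 2.53, SE 1.65, adjusted p = 0.431), with its lowest value in 4OHT + siCtrl replicate 1. By fragments class II was far lower and did not overlap, at 11.3 and 40.4 and then at 393 and 55.8 (log2 fold change 2.79, SE 0.962, adjusted p = 0.193). RLTR4 was at 477 and 887 and then at 1164 and 874, with overlap. Unnamed loci of all kinds numbered 3557 and 4492 in the controls and 10397 and 9559 after Dnmt1 KD, while their share of the estimated fragments overlapped, at 3.54% and 6.54% in the controls and 6.96% and 5.8% after Dnmt1 KD.

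**Figure D5:**
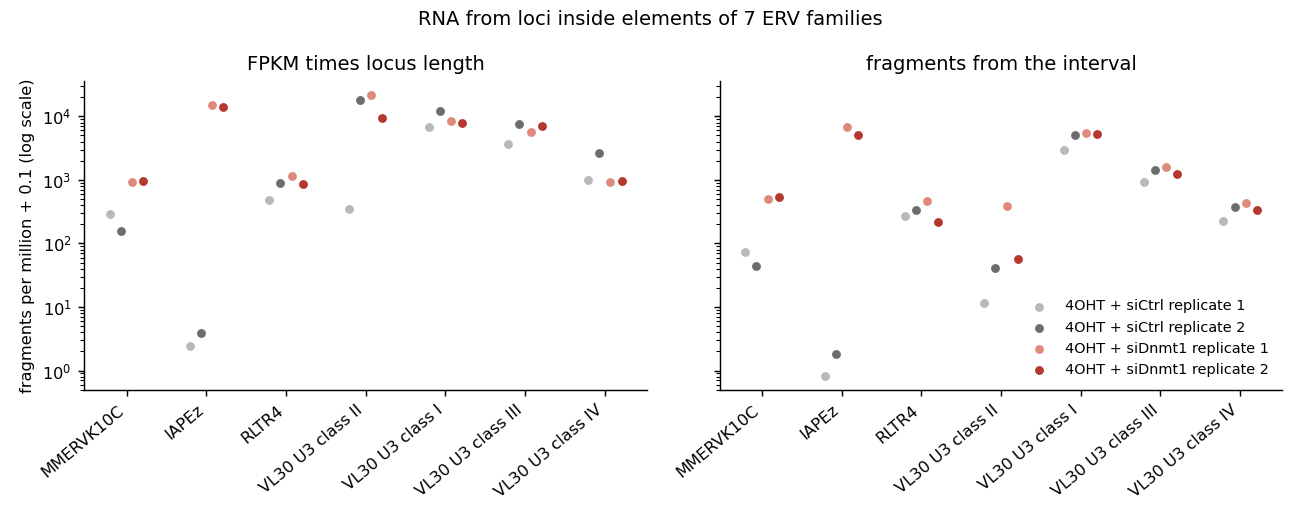
FPM + 0.1, fragments scaled to the depth of the library (y axis, log scale), from loci inside elements of 7 ERV families (x axis) in each of the 4 libraries with 4OHT, by FPKM times locus length (left) and by fragments estimated from the confidence limits (right). IAPEz is at 2.29 and 3.75 in the controls and at 14841 and 14259 after Dnmt1 KD on the left, MMERVK10C is higher after Dnmt1 KD in both panels, and the VL30 class I, III and IV values of the 2 groups lie close together.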

How the data were processed

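RNA of *Setdb1* cKO iMEFs was sequenced as 51-bp single reads. The authors mapped the reads with TopHat2 2.0.12 to mm9, keeping 1 position for a read with many hits, and ran Cufflinks separately for each library. They deposited FPKM with confidence limits per locus, named by RefSeq genes. Because 1 position was kept, levels of repeats and gene copies are estimates. Groups came from the labels.

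FPKM of loci with 1 symbol were summed, and log2(FPKM + 0.1) was fitted with limma 3.58.1 (trended prior, R 4.3.3) with 4 group means over 8 libraries, 10762 genes and 7 ERV families, adjusted by Benjamini-Hochberg. Element positions were taken from the list of the study. Genes with no value in at least 1 of the 8 libraries (1375 of 23059) were left out. In simulated data, 164 of 200 changed genes were recovered (71 of 100 at a log2 change of 1.5 and 93 of 100 at 2.5), with 6 other calls. The simulated noise was normal, independent between genes and equal in all 8 libraries for a gene. The unequal spreads of the real groups were not simulated, so that these rates hold for that setting only.

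Genes were named by rule: the DNA methylation list; the 12 with the largest changes each way above 0 in all 4 libraries; the 6 listed at 0 in 1 group; the 6 with the highest level; up to 6 called members a list; and the 4 with the highest and lowest interaction. Some genes that the rule names are not reported here. Members, lists and rules were chosen with earlier results of these data known. Alternatives were the pseudocount, filter, scaling, libraries in the fit, replicate block, prior, locus choice and each library left out.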

Additional observations from a re-analysis of the deposited data

Results flagged for a closer look

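The change on Dnmt1 KD differed between cells with and without 4OHT in 21 genes by the interaction term of the limma fit. The 4 highest terms on the log2 scale were 8.96 for *Surf2*, 7.13 for *Ethe1*, 6.75 for *Adck5* and 6.03 for *Tm6sf1*. *Ethe1*, a mitochondrial sulfur dioxygenase gene, was 11.8 and 13.5 FPKM in siCtrl, listed at 0 in both siDnmt1 libraries, and 19.04 to 37.1 FPKM in the 4 libraries with 4OHT. *Adck5* and *Tm6sf1* were listed at 0 in 6 of the 8 libraries and were 11.4 and 9.94 FPKM, and 7.38 and 5.64 FPKM, in the 4OHT + siDnmt1 libraries. The 4 lowest were -10.41 for *Ndufb10*, -7.94 for *Ten1*, -7.51 for *Glipr1* and -5.22 for *Pigw*. *Glipr1* was listed at 0 in both siCtrl libraries and at 43.9 and 42.0 FPKM in siDnmt1, against 14.2 and 11.98 FPKM in 4OHT + siCtrl and 30.0 and 31.9 FPKM in 4OHT + siDnmt1. *Ndufb10*, a complex I subunit gene, was 129 and 143 FPKM in siDnmt1 and listed at 0 in the other 6 libraries. All 8 have a group listed at 0 in both libraries, so that these terms depend on the pseudocount and are no measure of size.

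Of the ERV families, the term was -7.29 for VL30 U3 class III and -7.70 for class IV. By fragments, a measure chosen after seeing the data, class III was -5.16 (adjusted p = 0.0317) and class IV was -3.51 and no longer passed (adjusted p = 0.102). Class III was at 19.3 and 7.33 FPM (FPKM times locus length) in siCtrl and 2369 and 2121 in siDnmt1, and at 3608 and 7617 in 4OHT + siCtrl and 5585 and 6971 in 4OHT + siDnmt1.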

How the results depend on the processing

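Against 117 genes higher and 44 lower, no filter on FPKM gave 199 higher, a filter of 5 FPKM 49 higher, and a fit to the 4 libraries with 4OHT alone 25 higher and 6 lower. An adjusted p alone gave 101 lower, and a fold of at least 4 gave 8 lower. Quantile normalization gave 79 higher and 54 lower, a smaller share of higher calls. Leaving out each library gave 44 to 596 higher and 28 to 282 lower. The 21 interaction genes became 36 with a pseudocount of 1, 51 with no filter, 13 with a filter of 5 FPKM, 45 with no trend in the prior, and 23 to 724 with a library left out, 724 being without 4OHT + siCtrl replicate 1. Of the ERV families 1 was called, 0 with a pseudocount of 0.01, quantile normalization or no trend, 2 with fragments, and 0 to 2 with a library left out. Replicate 1 minus replicate 2 correlated between groups at r of -0.098 to 0.088 (9386 genes), so that the numbers did not pair the libraries. With the replicate block, 65 genes were higher and 20 lower, with 13 interaction genes and 0 ERV families.

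Of 1184 refits of named genes, 1030 kept direction and side of the threshold, 140 lost the call, 2 gained it and 12 changed sign. The sign changes came with a 4OHT + siCtrl library left out, given first without replicate 1 and then without replicate 2: *Setdb1* 0.29 and -0.30, *Dnmt3b* -0.65 and 0.11, *Uhrf1* 0.26 and -0.009, *Uhrf2* 0.48 and -0.23, *Mbd3* 0.056 and -0.18, *Mbd4* -0.014 and 0.35, *Zbtb33* 0.27 and -0.011, *Zbtb4* -0.19 and 0.32, *Gadd45a* 1.09 and -0.89, and VL30 class I -0.60 and 0.27, class II -0.32 and 5.37 and class III -0.29 and 0.79. *Setdb1* and *Mbd3* also changed sign without 4OHT + siDnmt1 replicate 1, at 0.17 and 0.018. Median-ratio scaling gave *Setdb1* 0.0093, quantile normalization VL30 class III -0.10, and fragments VL30 class I 0.46 and class IV 0.40. The cause of these changes was not tested. A lone library was assumed to vary like the other groups.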
